A study of Mus musculus with 4 samples.

Results

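S100A4, TRIO and VGLL3 were examined in breast tumor xenografts with and without depletion of the palmitoyltransferase DHHC3. They are 3 of the 99 genes that the deposited table names from probe sets with exactly 1 gene symbol, and each had 1 probe set. The genes were chosen on their intensities in this same comparison, and the table itself holds only probe sets whose groups lie apart. Their differences are therefore given as a description, with no test.

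RNA came from 4 xenograft tumors of MDA-MB-231, a triple-negative breast cancer line of human origin. The cells were injected into mammary fat pads, and the hosts were female athymic nude mice (Crl:NU(NCr)-Foxn1nu). In 2 tumors the injected cells carried a control shRNA and in 2 an shRNA against DHHC3, the product of ZDHHC3, which attaches palmitate to cysteines of other proteins. The series design gives 10 injections per group and tumor volumes over 30 days, and the sample labels give the tumors as 35 days old. The series asks what DHHC3 does in tumor growth, oxidative stress and senescence. Every host lacked a working Foxn1 gene, and nude mice have few mature T cells but keep other immune and stromal cells. The shRNA sequences, whether the lines were clones or pools, and whether the tumors of a group grew in separate mice were not stated in the sources used here, so the spread below is that between samples and may in part be technical.

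S100A4 is a small EF-hand calcium-binding protein. It binds the heavy chain of non-muscle myosin IIA, is linked to cell migration and metastasis, and is made by tumor cells as well as by fibroblasts and some leukocytes. TRIO is a large guanine nucleotide exchange factor that activates small GTPases controlling the actin cytoskeleton, among them Rac1. VGLL3 is a vestigial-like protein that does not bind DNA itself. It binds TEAD transcription factors, as the Hippo pathway coactivators YAP and TAZ do, and so takes part in transcription at TEAD sites.

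S100A4 was lower and TRIO and VGLL3 were higher in the DHHC3 shRNA tumors. S100A4 differed 2.11-fold and TRIO 2.05-fold, both on bright probe sets, and VGLL3 differed 3.97-fold on 1 of the dimmest probe sets of the table. In none of the 3 genes did the arrays of the groups overlap. That held for 100% of the 137 probe sets in the table, and all 137 (100%) also passed limma at an adjusted p under 0.05, so neither count says anything about these genes. Of the probe sets, 73.7% were higher and 26.3% lower with DHHC3 shRNA, and 43.8% differed at least 2-fold, as these 3 genes did. The depleted transcript, ZDHHC3, went with the labels: its probe set read 971 and 854 units in the controls and 240 and 264 units with DHHC3 shRNA. Every probe set of the table separates the groups, so only the direction of ZDHHC3 bears on the labels.

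The values are intensities in arbitrary units on a linear scale. An intensity depends on the probes as well as on the transcript, so intensities of different genes do not rank their transcripts by amount. The probe sets are annotated as human, while the sample labels give the host, mouse, as the organism, and how much mouse RNA bound to them was not measured. In a whole tumor, fewer cells that make a transcript and less of it per cell cannot be told apart. Over the 137 probe sets the array medians were 312 and 351 units in the controls and 484 and 458 units with DHHC3 shRNA, so the scaling between arrays bears on each fold change.

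S100A4 was read by probe set 203186_s_at (RefSeq NM_002961, Entrez gene 6275). It gave 9351 units in control replicate 1 and 8746 units in control replicate 2. With DHHC3 shRNA it gave 4265 units in replicate 1 and 4313 units in replicate 2. Both control tumors were high and both DHHC3 shRNA tumors were low, with a wide space between them. The mean went from 9049 ± 427 to 4289 ± 34.4 units (SD, n = 2 each), a difference of -4760 units. The log2 fold change was -1.08 ± 0.09 (SE from the limma fit). The 2 control arrays differed 1.07-fold from each other and the 2 DHHC3 shRNA arrays 1.01-fold. Taking 1 array from each group, the difference ran from 2.03-fold to 2.19-fold, so whichever tumors were paired the size was nearly the same.

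The S100A4 probe set was the brightest of the 137 on both control arrays and the fifth brightest on both DHHC3 shRNA arrays. Its signal thus lay at the bright end of the table in every tumor. The suffix _s_at marks a probe set that can match more than 1 transcript, and neither those transcripts nor the probes were analysed here. Among the 36 probe sets that were lower, 6 had a larger fold change than S100A4, with a median of 1.83-fold over the 36. It ranked 21 of 38 after quantile normalization. S100A4 is also used as a marker of fibroblasts. Of 12 other fibroblast markers (among them COL1A1, DCN, LUM and PDGFRB) none had a probe set with 1 symbol in the table, nor had any of 13 macrophage markers or 7 neutrophil markers. Some other leukocyte genes, not specific to macrophages or neutrophils, and collagen genes were in the table, and are named here after their values were seen. The leukocyte genes TRBC1, PTPN7 and HCLS1 were lower with DHHC3 shRNA, as S100A4 was, with log2 fold changes of -2.09, -0.91 and -0.73. So were 26.3% of the probe sets in the table. MR1 and NAIP, which also have roles in immune cells, were higher, with log2 fold changes of 0.89 and 1.38. Of the probe sets in the table, 73.7% were higher too. These genes are examples, not a full list. TRBC1 was dim, with a mean log2 intensity of 6.20, and its log2 fold change had an SE of 0.32. Leukocytes in these tumors came from the mouse host, which has few mature T cells, and what the human TRBC1 probe set read was not tested. The collagen genes COL6A3 and COL4A1 were higher, with log2 fold changes of 1.65 and 0.94. The levels of the listed markers were not analysed here, and the part of stromal or immune cells in the S100A4 difference was not tested.

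TRIO was read by probe set 209012_at (GenBank AV718192, Entrez gene 7204). It gave 1912 units in control replicate 1 and 1788 units in control replicate 2. With DHHC3 shRNA it gave 4005 units in replicate 1 and 3594 units in replicate 2. Here the control tumors were the low ones, and the lower DHHC3 shRNA tumor still read 1.88-fold above the higher control. The mean went from 1850 ± 87.6 to 3799 ± 291 units (SD, n = 2 each), a difference of 1950 units. The log2 fold change was 1.04 ± 0.10 (SE from the limma fit). The arrays of a group differed 1.07-fold in the controls and 1.11-fold with DHHC3 shRNA, and single pairs of a control and a DHHC3 shRNA array ran from 1.88-fold to 2.24-fold. As deposited, TRIO lay close to the middle of the probe sets that were higher: 43 of the 101 had a larger fold change, and their median was 1.99-fold. It ranked 64 of 99 after quantile normalization.

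VGLL3 was read by probe set 220327_at (RefSeq NM_016206, Entrez gene 389136). It gave 22.4 units in control replicate 1 and 11.02 units in control replicate 2. With DHHC3 shRNA it gave 66.7 units in replicate 1 and 58.4 units in replicate 2. All 4 values were low for this table: in brightness VGLL3 ranked 136 and 137 of 137 in the controls, and 132 and 133 with DHHC3 shRNA. The mean went from 16.7 ± 8.08 to 62.6 ± 5.90 units (SD, n = 2 each), a difference of 45.8 units. The log2 fold change was 1.99 ± 0.33 (SE from the limma fit), the second largest of the 101 higher probe sets as deposited. The limma fit draws each SE toward the spread typical of all 137 probe sets, so 0.33 understates the spread of the VGLL3 arrays themselves. After quantile normalization VGLL3 ranked 9 of 99 and did not pass limma. The table has no detection calls, so whether the control tumors held a measurable level of VGLL3 transcript is unknown.

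The fold change of VGLL3 was the least certain of the 3. Its 2 control arrays differed 2.04-fold from each other, the widest difference between control arrays of any probe set in the table. Single pairs of a control and a DHHC3 shRNA array therefore ran from 2.60-fold to 6.06-fold. Without control replicate 1 the difference was 5.67-fold, and without control replicate 2 it was 2.78-fold. In units, by contrast, the control arrays lay 11.4 apart, against 36.0 from the higher control to the lower DHHC3 shRNA array.

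**Figure D1:**
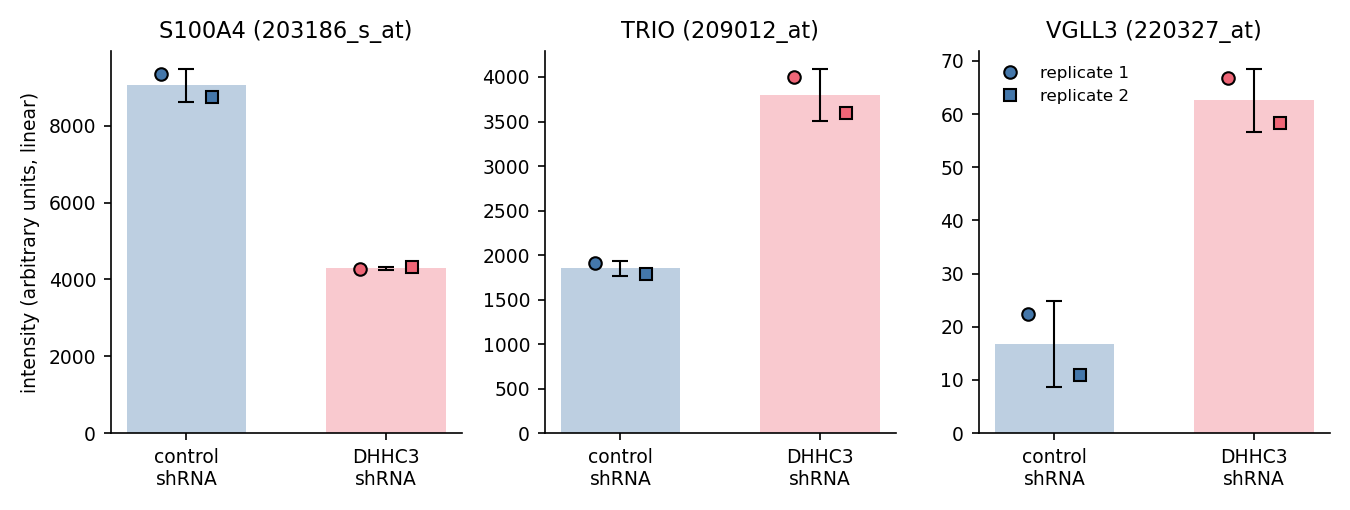
Intensity of the S100A4, TRIO and VGLL3 probe sets in arbitrary units on a linear axis from 0, each gene on its own scale; bars are group means, error bars the SD of 2 arrays, and circles and squares replicates 1 and 2. The S100A4 bars go from 9049 to 4289 units, the TRIO bars go from 1850 to 3799 units, and the VGLL3 bars from 16.7 to 62.6 units.

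**Figure D2:**
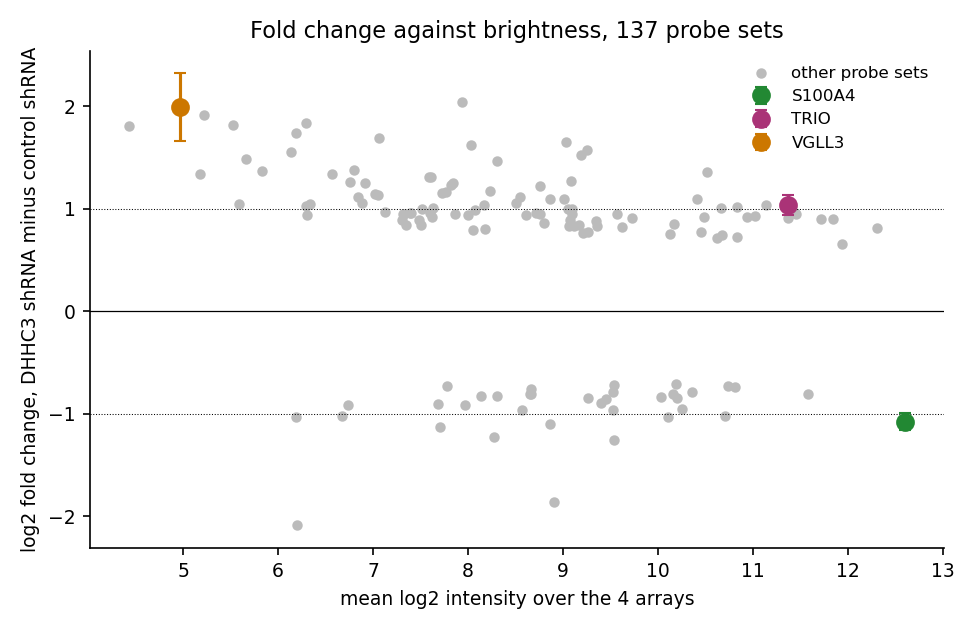
Log2 fold change (DHHC3 shRNA minus control shRNA) against mean log2 intensity over the 4 arrays for all 137 probe sets; grey points are the other probe sets, coloured points the 3 genes with the SE of the limma fit, and dotted lines a 2-fold difference. S100A4 lies at the bright end just below the lower dotted line, TRIO just above the upper one, and VGLL3 at the dim end with a log2 fold change of 1.99.

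The difference between arrays of a group went with brightness. When the probe sets were ordered by mean log2 intensity and cut into 4 classes of 34 or 35, the median absolute log2 difference between the control arrays was 0.21 in the dimmest class, 0.17 and 0.14 in the middle classes and 0.08 in the brightest. VGLL3, in the dimmest class, had a control difference of 1.03. S100A4 and TRIO, in the brightest class, each had a control difference of 0.10, close to the median there. Between the DHHC3 shRNA arrays the log2 difference was 0.02 for S100A4, 0.16 for TRIO and 0.19 for VGLL3, against medians of 0.07 in the brightest and 0.12 in the dimmest class. S100A4 and TRIO thus varied about as little between tumors of a group as other bright probe sets, apart from the wider TRIO values with DHHC3 shRNA.

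**Figure D3:**
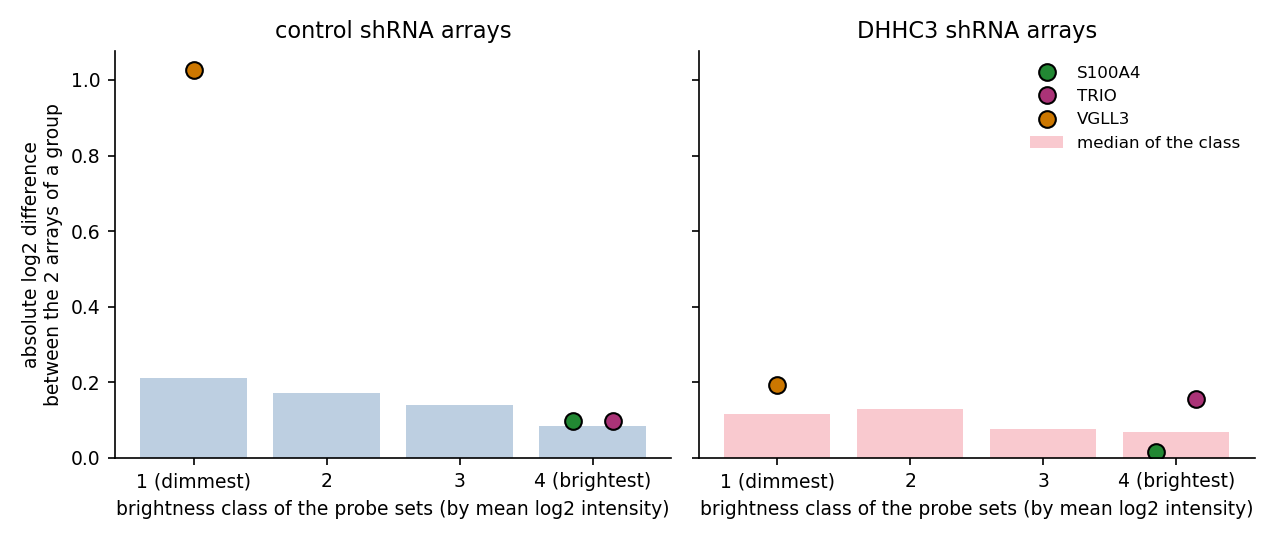
Absolute log2 difference between the 2 arrays of a group, controls on the left and DHHC3 shRNA on the right; bars are medians over each of the 4 brightness classes of the 137 probe sets, and points the 3 genes. VGLL3 stands at 1.03 in the control panel, where the median of its class is 0.21, while S100A4 and TRIO lie at 0.10.

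The direction of all 3 genes was the same under each way of scaling the arrays, but the sizes differed. Centring each array on its median over the table shifts every log2 fold change by -0.51. S100A4 was then 3.0-fold lower, TRIO 1.44-fold higher and VGLL3 2.79-fold higher. After quantile normalization over the table, which gives every array the same distribution, S100A4 was 2.30-fold lower, TRIO 1.30-fold higher and VGLL3 1.86-fold higher. The groups did not overlap in any of the 3 genes under these scalings. For TRIO the nearest arrays of the groups came within 1.28-fold after centring and 1.24-fold after quantile normalization. S100A4 had the same brightness rank on both arrays of a group, so quantile normalization gave those arrays the same value, set by rank alone. Both scalings balance a list in which most probe sets were higher. Centring thereby lowers every rise and enlarges every fall by construction, while quantile normalization moves each probe set by its rank on each array. Of the 3 genes, VGLL3 was the one that moved when low values were treated otherwise: with 16 units added to every intensity it was 2.43-fold higher, and with values under 32 units set to 32 it was 1.95-fold higher, while S100A4 stayed at 2.10-fold and 2.11-fold and TRIO at 2.04-fold and 2.05-fold.

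**Figure D4:**
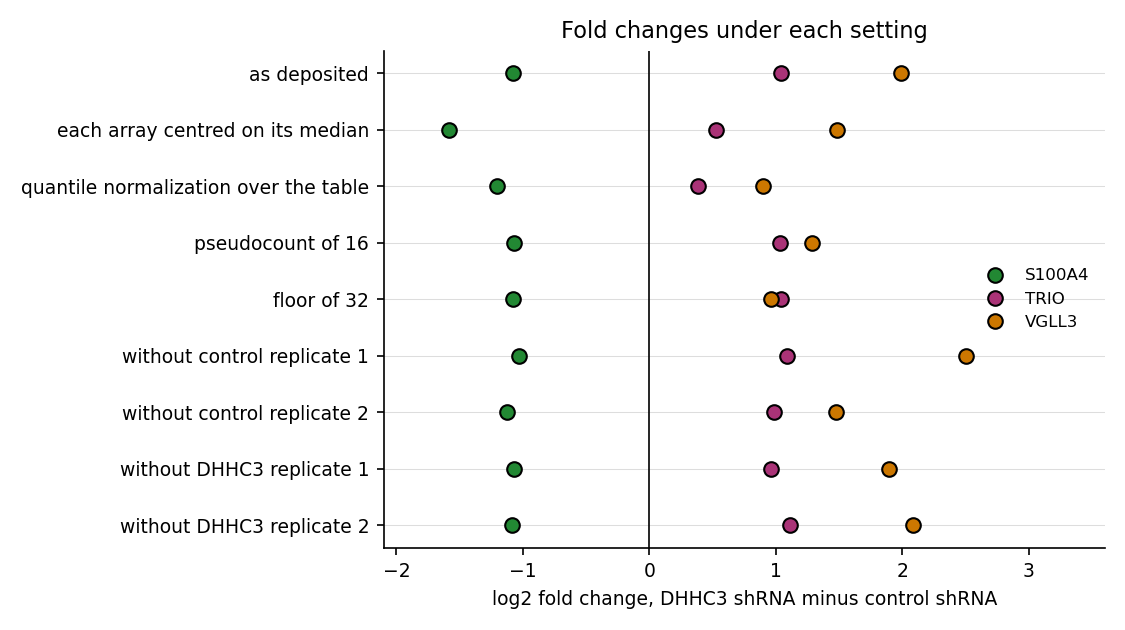
Log2 fold change (DHHC3 shRNA minus control shRNA, horizontal axis) of the 3 genes under each setting (vertical axis). S100A4 lies left of 0 and TRIO and VGLL3 right of 0 in every row; TRIO runs from 0.38 to 1.12 and VGLL3 from 0.90 to 2.50.

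The genes whose profile over the 4 arrays lay nearest to each of the 3 were found from log2 intensities centred on each probe set's own mean, by the root mean square difference over 4 arrays. All were read on the same arrays in a table that already separates the groups, so likeness mostly means a similar fold change. Nearest to S100A4 were DHRS3, a retinaldehyde reductase (0.03), GSTM3, a glutathione S-transferase (0.04), and PFDN4, a prefoldin chaperone subunit (0.04). GSTM3, for example, read 2456 and 2311 units in the controls and 1193 and 1158 units with DHHC3 shRNA, a 2.03-fold difference. Nearest to TRIO were HNRNPA3, an RNA-binding protein (0.05), SETD6, a lysine methyltransferase (0.05), and ZFP36L2, a protein that promotes mRNA decay (0.07). HNRNPA3 read 1700 and 1456 units in the controls and 3353 and 3121 units with DHHC3 shRNA, a 2.06-fold difference.

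VGLL3 had no equally close neighbour. The nearest were KAZN, a desmosome-associated protein (0.12), JAKMIP2 (0.31) and GTF2I, a general transcription factor (0.42). KAZN was dim too, with 24.7 and 15.01 units in the controls and 75.8 and 69.5 units with DHHC3 shRNA. As in VGLL3, control replicate 2 was the lowest array, and the fold change was 3.77, or 1.40 after quantile normalization. JAKMIP2, with 49.3 and 34.4 units in the controls, was again lower in control replicate 2, whereas the GTF2I controls read 31.4 and 29.1 units. The human genome holds near-identical copies of GTF2I, and the source of its signal among them is uncertain.

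**Figure D5:**
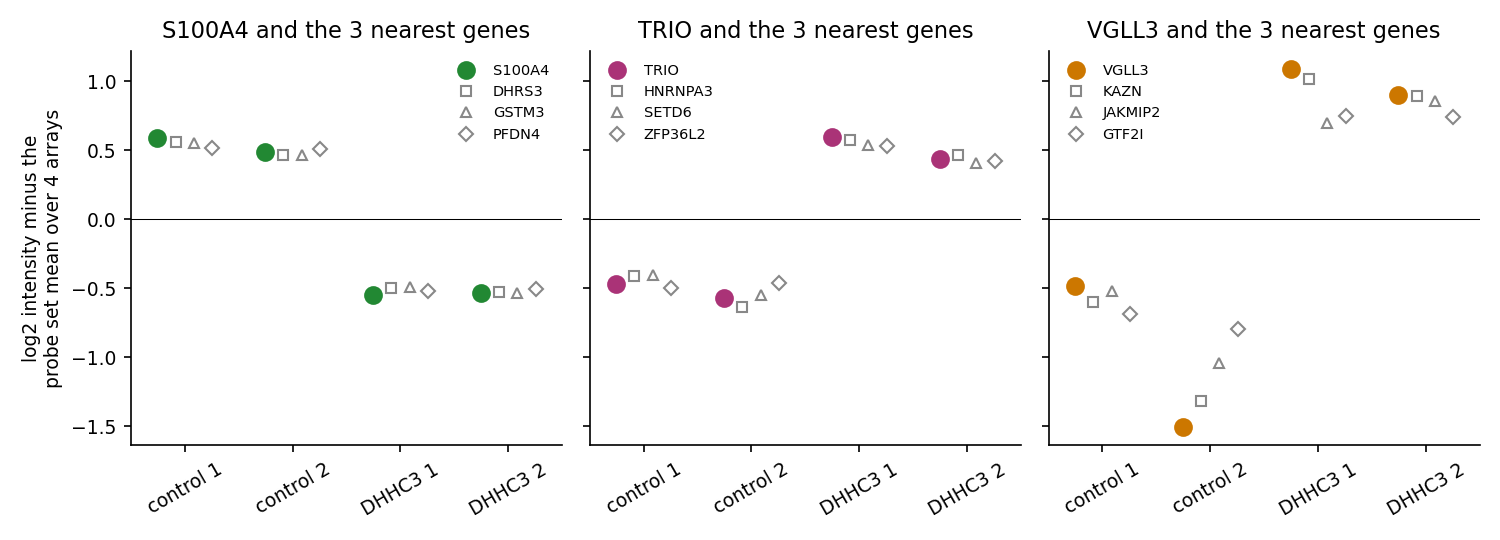
Log2 intensity minus the probe set's own mean, on each of the 4 arrays, for S100A4, TRIO and VGLL3 (large filled circles) and the 3 nearest genes of each (open symbols, set side by side). On each array the symbols lie at nearly the same height in the S100A4 and TRIO panels. In the VGLL3 panel they spread most on control replicate 2, where VGLL3 is lowest, and also on DHHC3 shRNA replicate 1.

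The gene lists drawn up around S100A4 and VGLL3 had no member in the table. Of 19 other S100 family genes and 12 S100A4 partners and regulators, such as the myosin heavy chain MYH9 and the receptor AGER, 0 had a probe set with 1 symbol. The same was true of 24 genes for TEADs, YAP, TAZ, other VGLL proteins and Hippo kinases, of 23 YAP and TEAD target symbols, and of 42 genes of motility, invasion and epithelial-mesenchymal transition. For the listed genes outside the table, neither the level nor a difference was analysed here, so a list without a member says nothing about its pathway.

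The marker lists could not be used to check the tissue. None of 15 markers of MDA-MB-231 cells, such as VIM and CD44, and none of 11 luminal, 9 endothelial, 12 T and NK cell, 6 adipocyte or 7 skeletal muscle markers had a probe set with 1 symbol in the table.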

How the data were processed

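The values deposited by the authors are linear intensity values of 137 probe sets on 4 arrays, already processed. Per the labels' protocols, tumor RNA was converted to cDNA and amplified into biotin-labelled cRNA. The summarisation, background correction, scaling, detection calls and the rule that chose these probe sets were not stated in the sources used here. The platform annotation gave 101 probe sets 1 symbol, 7 several and 29 none.

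Log2 intensities, without pseudocount, were fitted with limma 3.58.1 in R 4.3.3 (lmFit, eBayes, 4 arrays, no covariates), and adjusted by Benjamini-Hochberg over 137 probe sets with a threshold of 0.05. The fit was also run on simulated probe sets, most of them unchanged, with spread drawn independently of brightness. The deposited probe sets differ in both respects, so that run only checked the code. Fold changes are ratios of geometric means. Members, gene lists and the rule for named genes (the members, ZDHHC3, the 3 nearest genes of each and listed genes present) were chosen with earlier results of these data known. An exact two-sided permutation test of 2 against 2 arrays reaches p = 0.333 at the lowest. The number of arrays limits precision. Replicate numbers were not used to pair the tumors in the main fit. Alternatives changed the scaling, low values, the block, the filter, the limma trend and the arrays used. The gene list around TRIO is not reported here. No human genome or sequences were used here, so positions and sequences are not given. Figures used matplotlib 3.10.9.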

Additional observations from a re-analysis of the deposited data

How the results depend on the processing

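As deposited, all 137 probe sets passed limma. Asking also for a 2-fold difference left 60, and 124 passed with each array centred on its median, 104 after quantile normalization and 102 of 102 without the dimmest 25%; the pseudocount, the floor, the trend and leaving out each array gave 137. Centring and quantile normalization gave log2 fold changes of -1.59 and -1.20 for S100A4, 0.53 and 0.38 for TRIO, and 1.48 and 0.90 for VGLL3. VGLL3 did not pass limma after quantile normalization. Its log2 fold change was 1.28 with a pseudocount of 16 and 0.96 with a floor of 32. When 1 array was left out, assuming that a single array varies as the group of 2 does, the range was -1.12 to -1.03 for S100A4, 0.96 to 1.12 for TRIO and 1.48 to 2.50 for VGLL3, and the count stayed at 137. Replicate numbers were shared between the groups, and whether equal numbers mark a pair or a batch is not known. Deviations of replicates 1 from their group means correlated at 0.06 over the probe sets, which were selected on the group difference. With the replicate block 137 passed and the fold changes of the 3 genes were as without it. The SEs of their log2 fold changes went from 0.09 to 0.08 for S100A4, 0.10 to 0.07 for TRIO and 0.33 to 0.25 for VGLL3. The table was selected on this comparison, so counts that hardly move are no sign of stability. Signal over background is unknown, which limits VGLL3 most.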

Other observations

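Some other genes of exchange factors, adhesion and the cytoskeleton were in the table. They were chosen after their values were seen and lay outside the gene lists. ITSN2, a scaffold with an exchange factor domain for CDC42, read 395 units on both control arrays and 766 and 756 units with DHHC3 shRNA, 1.93-fold higher. NEDD9, a scaffold of focal adhesions linked to migration, read 507 and 457 units in the controls and 910 and 862 units with DHHC3 shRNA, 1.84-fold higher. Both were higher, as TRIO was, and so were 73.7% of the probe sets in the table. DENND1A, an exchange factor for Rab GTPases of endocytosis, went the other way, from 142 and 150 units to 76.0 and 79.2 units, 1.88-fold lower. It was 2.68-fold lower with centred arrays and 3.45-fold lower after quantile normalization.

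SCRIB, a cell polarity scaffold, read 1274 and 1256 units in the controls and 2207 and 2033 units with DHHC3 shRNA. STRN, a scaffold of a phosphatase complex that acts on Hippo kinases, read 148 and 147 units in the controls and 354 and 341 units with DHHC3 shRNA. AVIL, an actin-binding protein of the villin family, read 82.9 and 97.3 units in the controls and 182 and 212 units with DHHC3 shRNA. With each array centred on its median, SCRIB was 1.18-fold, NEDD9 1.29-fold, ITSN2 1.35-fold, AVIL 1.54-fold and STRN 1.65-fold higher, and SCRIB did not pass limma. After quantile normalization these 5 were 1.30-fold to 1.57-fold higher and passed.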
